A study of Mus musculus with 8 samples.

Results

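The cathepsins Ctsa, Ctsb, Ctsc, Ctsd, Ctsf, Ctsh, Ctsk, Ctsl, Ctss and Ctsz were examined in the RNA-Seq profiles of tumor-associated macrophages (TAMs). They were taken by gene symbol and are 10 of the 53247 genes of the table. TAMs had been gated on CD45, CD11b, MHCII and F4/80, all positive, and came from subcutaneous Lewis lung carcinoma (LLC) tumors, a mouse lung cancer line that grows in C57/BL6 hosts. The comparison was between 4 samples from WT mice and 4 from miR-21 null mice (miR-21-/-), all of strain C57/BL6, implanted at 8 weeks of age and examined 14 days later, at 10 weeks. The deletion was present in every cell of the miR-21-/- host, while the same implanted tumor line was used in both genotypes. The labels call the samples biological replicates but do not tie each to 1 animal, and a double number in the label of miR-21-/- replicate 1 does not show how many animals it came from.

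Cathepsins are proteases that work mainly in lysosomes. They are made as inactive precursors, carried to the lysosome largely by mannose 6-phosphate receptors, and activated there at acid pH. In macrophages they degrade engulfed protein, trim the invariant chain of MHC class II and, when secreted, cut extracellular matrix. Most are cysteine proteases. Cathepsin D is an aspartic protease and cathepsin A a serine carboxypeptidase.

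Values are CPM, read counts scaled to a common library size, as deposited, from about 20200000 to 33400000 reads per sample. Log2 fold changes compare miR-21-/- with WT on the log2(CPM + 1) scale, which understates changes of genes near or below 1 CPM, and adjusted p-values come from limma over 13850 tested genes. Macrophage transcripts were high in every sample, with 9 macrophage markers summing to 9916 to 11642 CPM in WT and 10675 to 13526 CPM in miR-21-/- TAMs. Within this list Fcgr1, a high-affinity Fc receptor, was higher past both limits defined below (log2 fold change 0.75), while Adgre1, which encodes the sorting marker F4/80 (-0.38, adjusted p = 0.0014), and Csf1r, the CSF-1 receptor (-0.48, adjusted p = 0.00538, limma), were lower. The gene Mir21a was listed at the floor of 0.0001 CPM in all 8 samples, so this mRNA library could not check the genotype.

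All 10 cathepsins passed the filter on low values, Ctsf only through its WT samples. Ctsc and Ctss were higher in miR-21-/- TAMs at an adjusted p of 0.005 or less and a fold change over 1.5, and Ctsf was lower. Because the filter kept Ctsf for its WT level, its place among the tested genes favoured that direction, and its count is a description. Of all tested genes, 2.89% were higher and 4.23% lower by that rule. At an adjusted p of 0.05 or less with no fold limit, Ctsc, Ctsl and Ctss were higher, beside 9.49% of all tested genes. By the same rule Ctsa, Ctsf and Ctsk were lower, beside 26.5% of all tested genes. The samples of the genotypes did not overlap for 6 of the 10 cathepsins, against 35.1% of tested genes. The median log2 fold change was 0.096 over the 10 cathepsins and -0.10 over all tested genes. In these bulk samples, fewer cells of a type and less RNA per cell cannot be told apart.

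**Figure D1:**
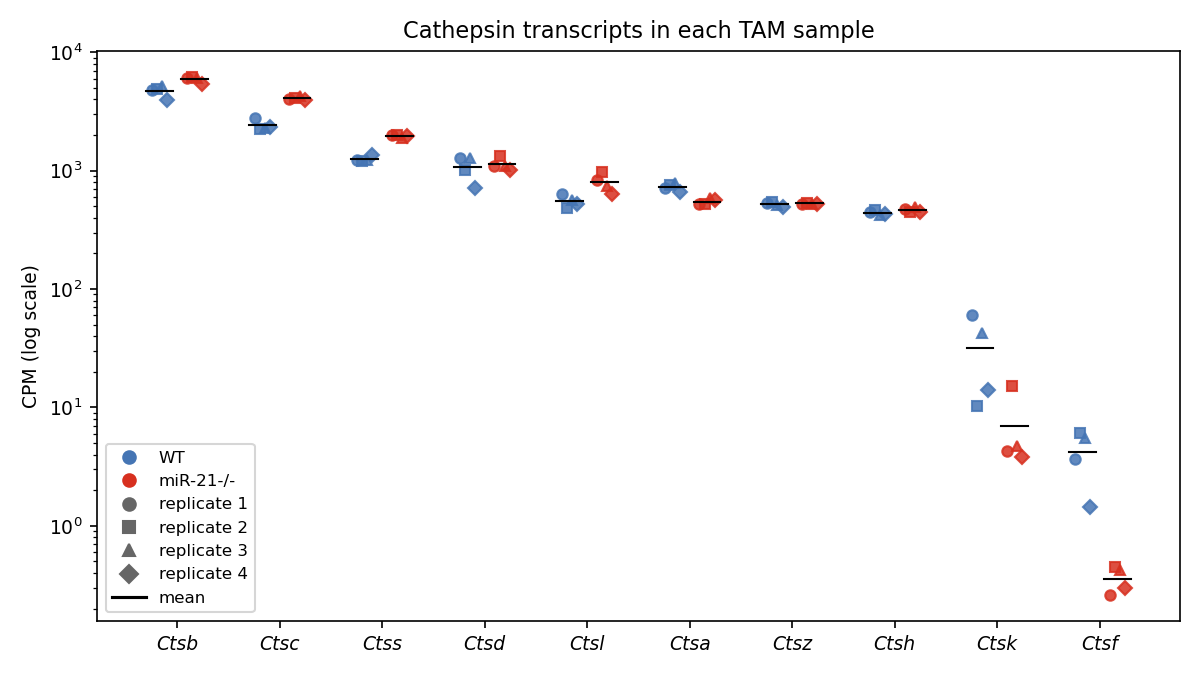
CPM of each of the 10 cathepsins (log axis) in the 4 WT and 4 miR-21-/- TAM samples. Marker shapes give the replicate number, and black lines are group means. Ctsc and Ctss lay higher in all 4 miR-21-/- samples than in any WT sample, while Ctsf lay lower and Ctsk overlapped.

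The sequences below are shown because Ctsc and Ctss had the cathepsin increases past both limits. E-boxes also occurred before RefSeq starts of several other members. RefSeq promoter entries (GRCm38.p6) were matched for 8 of the 10 members, and the 250 bases before each start were searched on both strands. The Ctss promoter, chr3:95526536-95526785 on the plus strand, held GAAANNGAAA (reverse TTTCNNTTTC), a core of the interferon-stimulated response element, whose first base lay 21 bases before the start. This motif occurred in 2.98% of 32851 promoters of the same length and in no other member with an entry. The Ctsc promoter, chr7:88277835-88278084 on the plus strand, held TTCNNNGAA, a STAT site core, 236 bases before the start, as did 7.02% of promoters. Capitals mark these matches, which are letters only and not shown to be bound.
Ctss: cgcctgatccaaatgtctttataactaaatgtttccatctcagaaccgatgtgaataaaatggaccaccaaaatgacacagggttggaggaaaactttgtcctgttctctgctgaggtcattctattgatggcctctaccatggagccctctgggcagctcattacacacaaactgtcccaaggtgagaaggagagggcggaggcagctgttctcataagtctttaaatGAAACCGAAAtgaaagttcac
Ctsc: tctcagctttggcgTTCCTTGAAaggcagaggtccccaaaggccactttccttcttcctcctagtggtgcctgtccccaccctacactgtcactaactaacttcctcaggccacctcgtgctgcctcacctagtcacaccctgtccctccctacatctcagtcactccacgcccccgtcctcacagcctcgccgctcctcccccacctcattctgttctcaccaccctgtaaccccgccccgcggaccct

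The E-box CACGTG, a palindrome, was found before RefSeq starts of Ctsa, Ctsd, Ctsf and Ctsl, against 6.02% of all promoters. In Ctsa and Ctsd it lay within TCACGTGA, a core of the element bound by the lysosomal regulator TFEB, which occurred in 0.785% of promoters. Stretches of 30 bases are shown with the E-box in capitals, from chr2:164833743-164833772 (Ctsa, plus strand, the second of its promoter entries), chr7:142387908-142387937 (Ctsd, minus strand), chr19:4855074-4855103 (Ctsf, plus strand) and chr13:64370739-64370768 (Ctsl, minus strand). Ctsd held a second E-box 245 bases before its RefSeq start. By the gene positions given below, the stretches shown for Ctsa, Ctsd and Ctsl lie within the gene. The stretch of Ctsf and the second E-box of Ctsd lie before the gene. Of the cathepsins with an E-box, Ctsa and Ctsf were lower, Ctsl was higher and Ctsd passed no limit. Any part of the E-box in these differences was not tested.
Ctsa: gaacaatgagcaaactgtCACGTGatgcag
Ctsd: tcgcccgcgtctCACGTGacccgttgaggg
Ctsf: caccccgtggtcCACGTGcctcgcgtaaat
Ctsl: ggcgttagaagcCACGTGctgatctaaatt

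miR-21 represses transcripts that pair with its seed, bases 2 to 8. The mature miR-21a-5p is encoded at chr11:86584120-86584141 on the minus strand, and its seed is given in capitals. Among the longest annotated 3′ UTRs of the 10 members, only that of Ctsl held a seed match. Its long isoform Ctsl-205, with a 3′ UTR of 4761 bases, had 3 matches of 7 or 8 bases, of which 1 had 8 bases, at chr13:64359559-64359566. The shorter isoform Ctsl-201, with a 3′ UTR of 884 bases, held 1 match of 7 bases and none of 8. Matches of 7 or 8 bases occurred in 12.4% and matches of 8 bases in 2.24% of 11449 tested genes. Neither Ctsc nor Ctss held a match. The 8-base match of Ctsl is shown in capitals within 30 bases.
miR-21a-5p: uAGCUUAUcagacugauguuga
Ctsl-205 site: tttgctaagctATAAGCTAtaatcttaaga

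Ctsc and Ctss, cysteine cathepsins with roles in immune cells, gave the clearest increases. Ctsc (chr7:88278085-88310888, plus strand) encodes dipeptidyl peptidase I, which activates granule serine proteases including granzymes. Its levels were 2792, 2243, 2308 and 2321 CPM in WT replicates 1 to 4 and 4066, 4123, 4244 and 3973 CPM in the miR-21-/- replicates. Every miR-21-/- sample was above every WT sample, and WT replicate 1 stood above the other WT samples. The mean was 1.70 times the WT mean, with a log2 fold change of 0.77 (SE 0.097, adjusted p = 0.000369, limma). Ctsc overlaps Gm26522, a noncoding gene on the opposite strand with means of 21.5 and 31.0 CPM.

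Ctss (chr3:95526786-95556403, plus strand) encodes cathepsin S, which cuts the invariant chain in antigen-presenting cells and stays active at neutral pH. It measured 1227, 1202, 1243 and 1362 CPM in WT and 2005, 2008, 1885 and 1976 CPM in miR-21-/- TAMs. The groups were far apart compared with their spread, with SDs of 71.1 and 57.3 CPM (n = 4 each). The ratio of means was 1.56 and the log2 fold change 0.65 (SE 0.072, adjusted p = 0.000192, limma). With quantile normalization the Ctss difference was 0.51, under the 1.5-fold limit, at an adjusted p of 0.00224 (limma).

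Cathepsins L and B are broadly acting endopeptidases of lysosomal protein breakdown. Ctsl (chr13:64359337-64370890, minus strand) measured 633, 482, 564 and 520 CPM in WT and 841, 971, 747 and 635 CPM in miR-21-/- TAMs. The lowest miR-21-/- sample, replicate 4, exceeded the highest WT sample by little. The log2 fold change was 0.53 (SE 0.13, adjusted p = 0.0109, limma), under the 1.5-fold limit. Without miR-21-/- replicate 4 it was 0.63, past both limits (adjusted p = 0.00399, limma).

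Ctsb (chr14:63122462-63145923, plus strand) measured 4781, 4855, 5236 and 3955 CPM in WT and 6021, 6226, 6078 and 5351 CPM in miR-21-/- TAMs. The groups did not overlap, although WT replicate 4 and miR-21-/- replicate 4 were each low in their group. The log2 fold change of 0.34 (SE 0.12) did not pass the 0.05 limit (adjusted p = 0.0513, limma). This call depended on the processing, with adjusted p between 0.0186 and 0.207 (limma) over the alternatives.

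Ctsd, Ctsh and Ctsz passed no limit. Ctsd, the aspartic protease (chr7:142375911-142388038, minus strand), measured 1269, 1003, 1270 and 718 CPM in WT and 1090, 1336, 1090 and 1013 CPM in miR-21-/- TAMs. The groups overlapped and WT replicate 4 was the lowest of the 8 samples. The log2 fold change was 0.12, with a 95% interval from -0.27 to 0.50, and -0.06 without WT replicate 4. The intervals of Ctsd, Ctsh and Ctsz each hold differences in either direction, and that of Ctsd was the widest.

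Ctsh (chr9:90054152-90076089, plus strand) encodes an aminopeptidase and measured 445, 464, 421 and 434 CPM in WT and 474, 445, 491 and 447 CPM in miR-21-/- TAMs. Its groups overlapped, and the log2 fold change was 0.07 with an interval from -0.055 to 0.20. Rescaling by the median of ratios gave 0.19 for Ctsh (adjusted p = 0.0395, limma), and quantile normalization gave a value of -0.0082. Ctsz (chr2:174427493-174439039, minus strand), which encodes the carboxypeptidase cathepsin X, measured 531, 540, 516 and 490 CPM in WT and 528, 535, 524 and 526 CPM in miR-21-/- TAMs. The 4 miR-21-/- samples of Ctsz lay within the WT range, and the log2 fold change was 0.02, with an interval from -0.095 to 0.14.

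Ctsa, Ctsf and Ctsk were the members with lower levels. Ctsa (chr2:164832873-164841032, plus strand) encodes the protective protein, which stabilizes the sialidase Neu1 and beta-galactosidase in the lysosome. It measured 712, 762, 781 and 662 CPM in WT and 521, 523, 583 and 560 CPM in miR-21-/- TAMs. The groups did not overlap, and the mean in WT was 1.33 times that in miR-21-/- TAMs. The log2 fold change of -0.41 (SE 0.071, adjusted p = 0.00192, limma) was under the 1.5-fold limit. Ctsa overlaps Pltp, a lipid transfer gene on the opposite strand with means of 186 and 128 CPM. Whether reads were assigned by strand is not given in the sources used here, so reads of the overlap could not be told apart.

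Ctsf (chr19:4855130-4860918, plus strand), a cysteine cathepsin with a long propeptide, was the least abundant member. It measured 3.64, 6.06, 5.54 and 1.43 CPM in WT and 0.261, 0.450, 0.422 and 0.298 CPM in miR-21-/- TAMs. By the value of 1 read in each sample these were about 36 to 175 reads in WT and 7 to 15 reads in miR-21-/- TAMs. All miR-21-/- samples were low and no sample overlapped, with WT replicate 4 the lowest of the WT group. The mean in WT was 11.7 times that in miR-21-/- TAMs, and the log2 fold change was -1.82 (SE 0.29, adjusted p = 0.00116, limma). The Ctsf difference depended on the pseudocount, at -3.06 with 0.1 (adjusted p = 0.000464, limma) and -0.44 with 10, under the fold limit (adjusted p = 0.00445, limma). Without a filter on low values, and so with no choice by level, it missed the 0.005 limit (adjusted p = 0.00941, limma), and a filter of 5 CPM removed the gene.

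Ctsk (chr3:95499256-95509362, plus strand) encodes the collagen-degrading cathepsin best known from osteoclasts. It measured 60.8, 10.4, 42.2 and 14.1 CPM in WT and 4.25, 15.3, 4.68 and 3.84 CPM in miR-21-/- TAMs. WT replicates 1 and 3 were high, and miR-21-/- replicate 2 was above WT replicates 2 and 4, so the groups overlapped. The log2 fold change was -1.90 (SE 0.55, adjusted p = 0.0234, limma). The call was lost without WT replicate 1 (adjusted p = 0.0539) or 3 (0.0669), and also without miR-21-/- replicate 1 (0.0575), 3 (0.0573) or 4 (0.0567), all by limma. Without miR-21-/- replicate 2 the log2 fold change was -2.31 (adjusted p = 0.0112, limma). The Ctsk call was also lost without a filter on low values (adjusted p = 0.0886, limma), and a pseudocount of 10 gave -1.16.

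**Figure D2:**
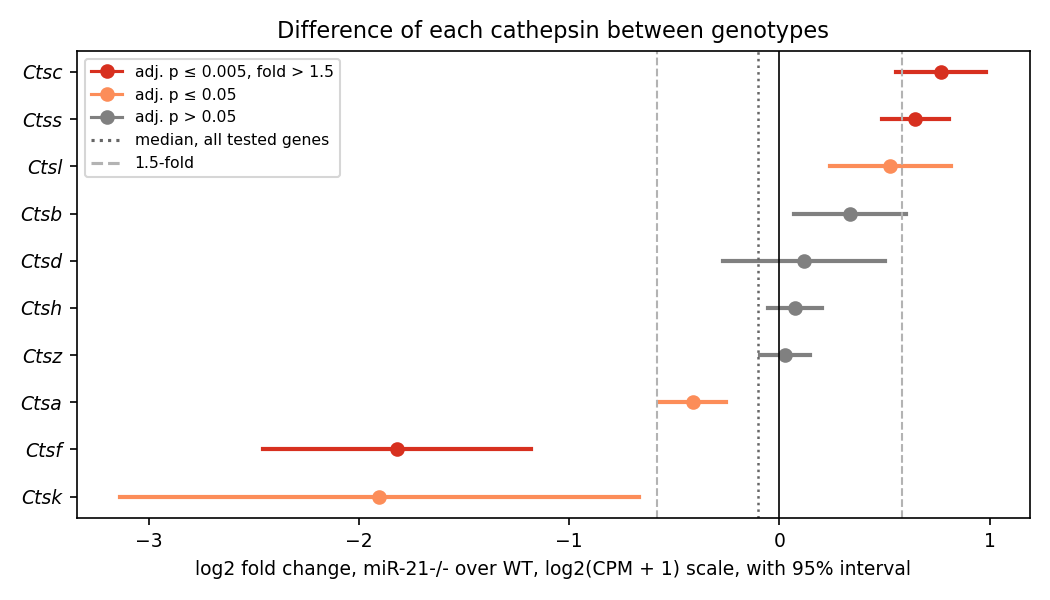
Log2 fold change of each cathepsin, miR-21-/- over WT, on the log2(CPM + 1) scale. Points are limma estimates and lines 95% intervals, the dashed lines mark 1.5-fold and the dotted line the median of all tested genes, -0.10. Ctsc and Ctss lay past 1.5-fold to the right, and Ctsf and Ctsk to the left with wide intervals.

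Genes were also chosen for likeness to Ctsk over these samples, so the likeness itself is not a result. The 5 tested genes with the nearest profile over the 8 samples, by Euclidean distance of centred log2(CPM + 1) values, were Slc9b2 (distance 1.61), Rnase4 (1.74), Ang (1.74), Cyp2s1 (1.79) and Rgs18 (1.85). Slc9b2, a sodium/proton exchanger, measured 3.64, 0.693, 2.57 and 0.677 CPM in WT, again highest in replicates 1 and 3. It was 0.0747, 0.480, 0.0001 and 0.0662 CPM in miR-21-/- TAMs, the 0.0001 being the table's floor. Ang and Rnase4 overlap in the genome, so their reads could be split between them.

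The fibroblast markers moved with Ctsk and Ctsf. Their summed level was 48.6 to 121 CPM in WT and 8.14 to 42.3 CPM in miR-21-/- TAMs, and none of the 6 was at the floor in all samples. Of the 5 tested, 3 were lower past both limits, beside 4.23% of all tested genes, and none was higher. The count was 1 (Pdgfrb) with the median of ratios or quantile normalization. Their median log2 fold change was -2.25 as deposited. Col1a1, a fibrillar collagen chain, measured 23.3, 10.1, 29.1 and 28.5 CPM in WT and 1.27, 11.0, 2.92 and 2.94 CPM in miR-21-/- TAMs. Among miR-21-/- samples replicate 2 was the highest for Col1a1, as it was for Ctsk. Among WT samples the order differed, since replicate 4 was high in Col1a1 and low in both Ctsk and Ctsf. The sort required CD45 at the surface, and how far it excluded fibroblasts was not tested. The part of such transcripts in the Ctsk and Ctsf differences was not tested either.

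Of the osteoclast-like markers, Mmp9, a secreted gelatinase chosen here after its values were seen, measured 1025, 330, 1158 and 166 CPM in WT and 260, 318, 366 and 192 CPM in miR-21-/- TAMs. WT replicates 1 and 3 were high for Mmp9, as for Ctsk, but miR-21-/- replicate 2 was not. The Mmp9 groups overlapped and passed no limit (log2 fold change -0.87, adjusted p = 0.233, limma). Of the 4 tested markers of this list, 1 was higher and 1 lower at an adjusted p of 0.05 or less (limma), beside 9.49% and 26.5% of all tested genes. Ocstamp, a fusion gene of osteoclasts, was the higher one, at 54.8, 61.2, 45.2 and 50.7 CPM in WT and 54.4, 83.7, 87.4 and 102 CPM in miR-21-/- TAMs (log2 fold change 0.59, adjusted p = 0.0212, limma), and Acp5 the lower one. Calcr, the calcitonin receptor, was at the floor in all 8 samples. Dcstamp measured 2.51, 0.658, 2.67 and 0.916 CPM in WT and 0.298 to 0.970 CPM in miR-21-/- TAMs. It passed no limit (log2 fold change -0.70, adjusted p = 0.0616, limma). Oscar, below the filter on low values, measured 0.936, 0.312, 1.04 and 0.359 CPM in WT and 0.0001 to 0.0900 CPM in miR-21-/- TAMs. Dcstamp and Oscar were highest in WT replicates 1 and 3, as Ctsk was. The summed level of the 6 osteoclast-like markers was 581 to 1520 CPM in WT and 450 to 657 CPM in miR-21-/- TAMs, and its part in the Ctsk difference was not tested.

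**Figure D3:**
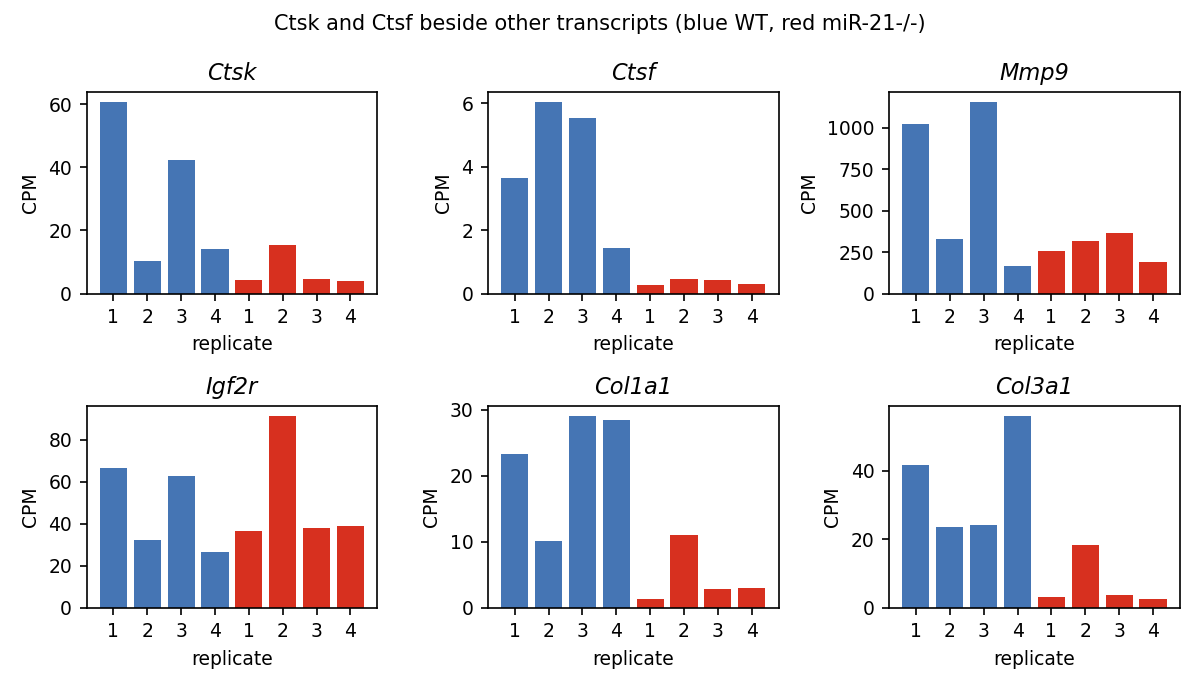
CPM in each sample (bars, linear axes from 0, blue WT replicates 1 to 4, red miR-21-/- replicates 1 to 4) of Ctsk and Ctsf beside Mmp9, Igf2r, Col1a1 and Col3a1, which were chosen after their values were seen. WT replicates 1 and 3 stood out in Ctsk and Mmp9, and miR-21-/- replicate 2 stood out among its group in Ctsk, Igf2r and both collagens.

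Other markers also differed between genotypes beside the increases of Ctsc and Ctss. The neutrophil markers summed to 717 to 1101 CPM in WT and 531 to 699 CPM in miR-21-/- TAMs, and 4 of 6 tested were lower at an adjusted p of 0.05 or less (limma), beside 26.5% of all tested genes, or 1 of 6 with the median of ratios. The dendritic cell markers summed to 10.4 to 15.9 CPM in WT and 14.9 to 38.9 CPM in miR-21-/- TAMs. By that rule 1 of 6 was higher and none lower, beside 9.49% and 26.5% of all tested genes. The median log2 fold change of the dendritic cell markers was -0.16, and 4 of the 6 were below 0, among them Flt3 at -0.50 and Zbtb46 at -0.41. The higher gene, Clec9a, measured 2.30, 2.65, 2.47 and 2.74 CPM in WT and 4.18, 5.84, 8.71 and 14.0 CPM in miR-21-/- TAMs. Clec9a was highest in miR-21-/- replicate 4. The summed B cell markers were 10.8 to 16.8 CPM in WT and 3.60 to 9.99 CPM in miR-21-/- TAMs, and Cd79b, the 1 tested marker of that list, was lower. The summed T and NK cell markers overlapped, at 25.4 to 43.0 CPM in WT and 14.3 to 50.6 CPM in miR-21-/- TAMs, but members of that list moved in opposite directions. Cd8a, the CD8 alpha chain, was 2.01, 1.32, 2.18 and 2.19 CPM in WT and 11.6, 6.04, 2.80 and 6.35 CPM in miR-21-/- TAMs (log2 fold change 1.28, adjusted p = 0.00804, limma). Prf1, the pore-forming perforin of cytotoxic cells, was also higher (1.16, adjusted p = 0.0261, limma), with overlapping groups. Cd4 was lower past both limits, from 5.93 to 29.99 CPM in WT to 0.845 to 3.40 CPM in miR-21-/- TAMs (log2 fold change -2.35, adjusted p = 0.00206, limma). No marker of these 4 lists was at the floor in all samples. The sort required CD11b, MHCII and F4/80 at the surface, and how far it excluded cells of these types was not tested. Their part in the cathepsin differences was not tested.

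Levels were compared between genes as CPM per kb of transcript, using the best supported coding isoform. In WT TAMs Ctsb (992 ± 114 CPM per kb, SD, n = 4), Ctsc (969 ± 101) and Ctss (929 ± 52.4) were highest and their ranges overlapped. Ctsd followed at 501 ± 124 CPM per kb and overlapped Ctsz at 360 ± 15.2. Ctsa (288 ± 21.1 CPM per kb), Ctsl (279 ± 32.9) and Ctsh (273 ± 11.2) overlapped one another, while Ctsk (21.1 ± 15.8) and Ctsf (2.11 ± 1.06) lay far below.

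In miR-21-/- TAMs the leading cathepsins did not overlap at this isoform length. Ctsc led at 1645 ± 45.4 CPM per kb, followed by Ctss at 1453 ± 42.3 and Ctsb at 1248 ± 81.9 (SD, n = 4 each). Ctsl, at 405 ± 72.5 CPM per kb, overlapped both Ctsd (532 ± 66.0) and Ctsz (367 ± 3.10). Ctsa was below Ctsh, at 216 ± 11.8 against 287 ± 13.6 CPM per kb. Ctsk (4.64 ± 3.65 CPM per kb) and Ctsf (0.181 ± 0.0466) were again lowest. The order depended on the isoform length, an alternative added after the values were seen. With the longest coding isoform Ctsc was at 750 and 1274 CPM per kb in WT and miR-21-/- TAMs, which put Ctss first in miR-21-/- TAMs. Ctsc (1234 to 1318 CPM per kb) and Ctsb (1128 to 1313) then overlapped in miR-21-/- TAMs, while in WT Ctsc (697 to 867) lay below Ctss (887 to 1005) without overlap. By that length Ctsa was below Ctsh in WT already, at a mean of 200.05 CPM per kb, and Ctsl was at 89.2 and 129 CPM per kb in WT and miR-21-/- TAMs.

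**Figure D4:**
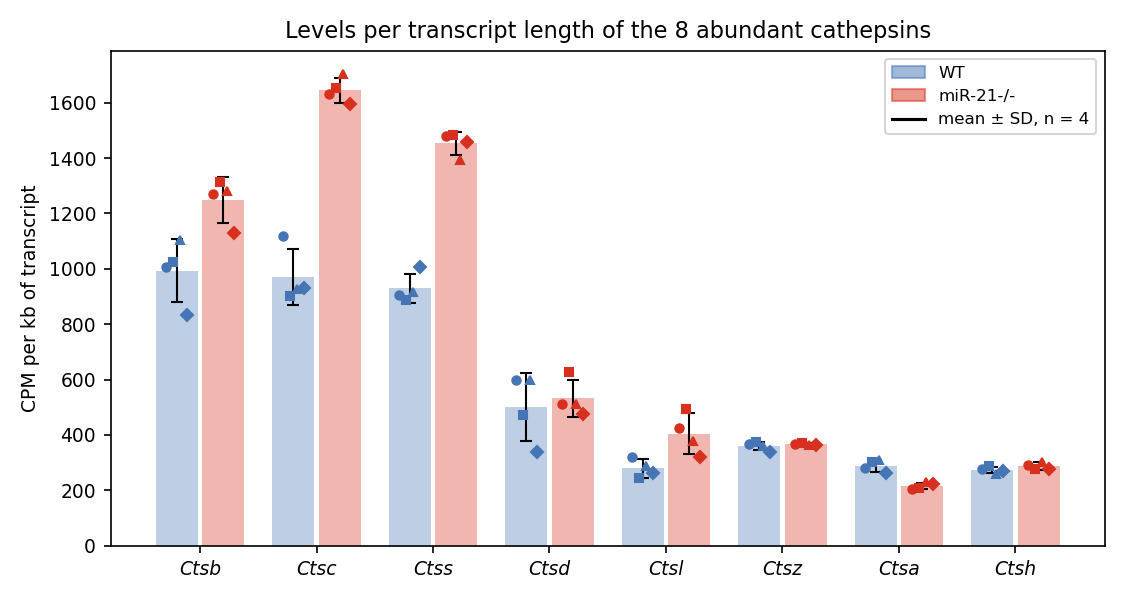
CPM per kb of transcript (linear axis from 0) of the 8 abundant cathepsins. Bars are means, error bars SD (n = 4) and points the samples, blue for WT and red for miR-21-/-, with marker shapes for replicates 1 to 4 as circles, squares, triangles and diamonds. Ctsb, Ctsc and Ctss overlapped in WT and were separate in miR-21-/- TAMs, with Ctsc highest, at the isoform lengths used here but not with the longest isoforms.

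The 10 members summed to a higher level in every miR-21-/- sample than in any WT sample. Their summed CPM was 10478 to 12456 in WT and 14485 to 16182 in miR-21-/- TAMs, or 1.33 to 1.57% and 1.80 to 2.00% of each sample's listed total. Ctsb, Ctsc, Ctss and Ctsd held 80.6% ± 0.62 of the sum in WT and 84.8% ± 0.18 in miR-21-/- TAMs (SD, n = 4 each). Of these Ctsc and Ctss passed the limits while Ctsb and Ctsd did not, and Ctsa, Ctsf and Ctsk were lower, so the sum does not stand for every member. Composition, which does not depend on the scaling between samples, was given as the share of each member in the summed CPM per kb. The share of Ctsc was 19.3 to 22.8% in WT and 25.7 to 27.6% in miR-21-/- TAMs, and that of Ctsa was 5.71 to 6.68% and 3.21 to 3.78%. Neither overlapped. The shares of Ctsh and Ctsz were also lower without overlap, at 5.93% and 7.83% in WT against 4.67% and 5.96% in miR-21-/- TAMs on average, while their CPM differed by log2 fold changes of 0.07 and 0.02, so the lower shares came with the larger sum. Ctsb kept overlapping shares, 19.6 to 23.1% and 19.3 to 20.8%, and the share of Ctss overlapped as well, at 18.4 to 23.6% and 22.6 to 25.0%.

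Of 12 further cathepsin genes in the table, 2 were tested and neither passed a limit as deposited. Ctso, a ubiquitous cysteine cathepsin, measured 34.3, 36.3, 36.4 and 32.5 CPM in WT and 41.5, 37.3, 37.8 and 40.7 CPM in miR-21-/- TAMs. These did not overlap, with a log2 fold change of 0.17 (adjusted p = 0.0518, limma). Ctso was higher at an adjusted p of 0.05 or less with the median of ratios (0.28, adjusted p = 0.00537), quantile normalization (0.25, adjusted p = 0.0105) and a filter of 5 CPM (adjusted p = 0.0463, limma). Ctse, an aspartic cathepsin, had overlapping groups and a log2 fold change of -0.38 (adjusted p = 0.0693, limma).

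Of 15 genes of the cystatin, serpin and related inhibitor families in the table, 8 were tested, of which 2 were higher and 3 lower at an adjusted p of 0.05 or less (limma), beside 9.49% and 26.5% of all tested genes, with a median log2 fold change of 0.083. The median of ratios and quantile normalization each gave 3 higher and 2 lower. Serpinb9, known as an inhibitor of granzyme B rather than of a cathepsin, was higher past both limits, and Serpinb6a was lower. Serpinb9 measured 17.3, 16.1, 18.2 and 24.7 CPM in WT and 36.1, 42.9, 42.2 and 59.0 CPM in miR-21-/- TAMs. Serpinb6a, an intracellular serpin, measured 82.1, 102, 97.4 and 91.4 CPM in WT and 34.4, 56.8, 43.3 and 57.4 CPM in miR-21-/- TAMs. Both groups of values were separate, with log2 fold changes of 1.19 (adjusted p = 0.000464) and -0.97 (adjusted p = 0.00103, limma). Cst3, the secreted cystatin C, was at 251 to 308 CPM in WT and 270 to 304 CPM in miR-21-/- TAMs and passed no limit.

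Genes that process cathepsins or carry them to the lysosome changed in both directions. Of 11 tested, 1 was higher and 4 were lower at an adjusted p of 0.05 or less (limma), beside 9.49% and 26.5% of all tested genes, none past the fold limit, and the median log2 fold change was -0.16. The median of ratios gave 3 higher and 3 lower. M6pr, the cation-dependent mannose 6-phosphate receptor, measured 330, 329, 353 and 333 CPM in WT and 409, 443, 414 and 430 CPM in miR-21-/- TAMs, a log2 fold change of 0.34 (adjusted p = 0.00118, limma). Sort1, the alternative sorting receptor sortilin, had a log2 fold change of -0.58 (adjusted p = 0.0119, limma) with overlapping groups. Igf2r, the larger mannose 6-phosphate receptor, passed no limit and stood out in miR-21-/- replicate 2 at 91.3 CPM, against 36.6 to 38.8 CPM in the rest of its group.

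The partners of cathepsin A and the saposins did not move in one direction. Of 5 tested, 2 were higher and 1 lower at an adjusted p of 0.05 or less (limma), beside 9.49% and 26.5% of all tested genes. Neu1, the sialidase that cathepsin A protects, measured 89.9, 96.3, 96.9 and 85.2 CPM in WT and 66.9, 68.7, 66.7 and 67.5 CPM in miR-21-/- TAMs. It was lower in every miR-21-/- sample, as Ctsa was, with a log2 fold change of -0.44 (adjusted p = 0.000299, limma). Psap, the saposin precursor, had a log2 fold change of 0.40 (adjusted p = 0.0278, limma), and the call was kept in 11 of 17 alternatives. The Psap difference was 0.17 with quantile normalization (adjusted p = 0.391, limma). The call was also lost without a filter on low values (adjusted p = 0.175), without WT replicate 1 (0.0626) and without miR-21-/- replicate 2 (0.0527), 3 (0.0729) or 4 (0.067), all by limma.

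Among 33 other lysosomal proteases and hydrolases, all tested, 5 were higher and 12 lower at an adjusted p of 0.05 or less (limma), beside 9.49% and 26.5% of all tested genes, with a median log2 fold change of -0.12. Acp5, the tartrate-resistant acid phosphatase, measured 324, 325, 314 and 363 CPM in WT and 136, 173, 204 and 212 CPM in miR-21-/- TAMs. It was the only one of the list past both limits, with a log2 fold change of -0.89 (adjusted p = 0.000672, limma). Ppt1, a palmitoyl thioesterase, had the highest log2 fold change, 0.50 (adjusted p = 0.00563, limma). The excess of lower hydrolases was not kept with the median of ratios, which gave 9 higher and 9 lower and a median of -0.0010. Quantile normalization gave 6 higher and 10 lower and a median of -0.052. With the median of ratios all tested genes went from 1314 higher and 3668 lower to 2195 higher and 2001 lower at an adjusted p of 0.05 or less (limma). With quantile normalization they went to 1901 higher and 2255 lower.

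Of 16 lysosomal membrane and lumen transport genes tested, 5 were higher and 1 lower at an adjusted p of 0.05 or less (limma), beside 9.49% and 26.5% of all tested genes, and the median log2 fold change was 0.028. The median of ratios gave 7 higher and none lower. Npc2, a soluble cholesterol carrier, measured 472, 409, 451 and 419 CPM in WT and 722, 707, 637 and 584 CPM in miR-21-/- TAMs, a log2 fold change of 0.59 (adjusted p = 0.000598, limma). That was just over the fold limit, and the call was lost in 7 of 17 alternatives. Cd63, a tetraspanin, had a log2 fold change of -0.39 (adjusted p = 0.0788, limma).

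The V-ATPase is the proton pump that acidifies the lysosome. Of 18 subunits tested, 1 was higher and 1 lower at an adjusted p of 0.05 or less (limma), beside 9.49% and 26.5% of all tested genes, and none was past the fold limit, while the median of ratios gave 5 higher and none lower. The Atp6v0a1 call was lost with that rescaling (adjusted p = 0.0759), without a filter on low values (0.0858), without WT replicate 1 (0.0534), 2 (0.0634) or 3 (0.0673) and without miR-21-/- replicate 3 (0.0623) or 4 (0.0633), all by limma. Atp6v0a1 had the lowest log2 fold change, -0.47 (adjusted p = 0.025, limma), a call kept in 10 of 17 alternatives, and Atp6v0d2 the highest, 0.58 (adjusted p = 0.233, limma). Atp6v0d2, the osteoclast subunit, measured 18.8, 6.61, 18.9 and 5.30 CPM in WT and 16.2, 20.2, 17.3 and 13.1 CPM in miR-21-/- TAMs, high in WT replicates 1 and 3 as Ctsk was.

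Of 10 MiT/TFE transcription factors and regulators, which drive lysosomal genes, 1 was higher and 2 lower at an adjusted p of 0.05 or less (limma), beside 9.49% and 26.5% of all tested genes. The median of ratios gave 2 higher and 1 lower, and quantile normalization 1 of each. Mitf measured 30.1, 25.0, 29.5 and 21.9 CPM in WT and 38.3, 41.9, 36.7 and 41.0 CPM in miR-21-/- TAMs, a log2 fold change of 0.56 (adjusted p = 0.0021, limma). Flcn, folliculin, which keeps these factors out of the nucleus, measured 71.4, 79.3, 92.4 and 68.3 CPM in WT and 46.6, 45.4, 58.2 and 45.3 CPM in miR-21-/- TAMs. The groups of both genes were separate, and Flcn had a log2 fold change of -0.66 (adjusted p = 0.00141, limma). Tfeb, the second lower gene, named here after its values were seen, measured 25.9, 30.6, 30.3 and 26.8 CPM in WT and 24.9, 23.3, 22.7 and 24.8 CPM in miR-21-/- TAMs without overlap (log2 fold change -0.24, adjusted p = 0.0269, limma). The Tfeb call was lost with the median of ratios (-0.12, adjusted p = 0.178) and with quantile normalization (-0.15, adjusted p = 0.105, limma).

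The 6 genes of the MHC class II list included the class II chaperone Cd74, which is cut by cathepsins S and L. None of the 6 passed a limit as deposited, and 1 was higher at an adjusted p of 0.05 or less with the median of ratios. Their log2 fold changes ranged from -0.13 for H2-Aa (adjusted p = 0.645, limma) to 0.18 for H2-DMa (adjusted p = 0.195, limma). H2-Aa measured 1326 to 2627 CPM over the miR-21-/- samples and 1812 to 2625 CPM over the WT samples, and miR-21-/- replicate 2 was the lowest. Cell sorting required MHCII at the surface in both genotypes. Over all 109 tested genes of these lists, 17 were higher and 24 lower at an adjusted p of 0.05 or less (limma), beside 9.49% and 26.5% of all tested genes, and the median log2 fold change was -0.02. The median of ratios gave 33 higher and 16 lower (median 0.094) and quantile normalization 20 higher and 22 lower, so the balance of directions rested on the scaling.

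**Figure D5:**
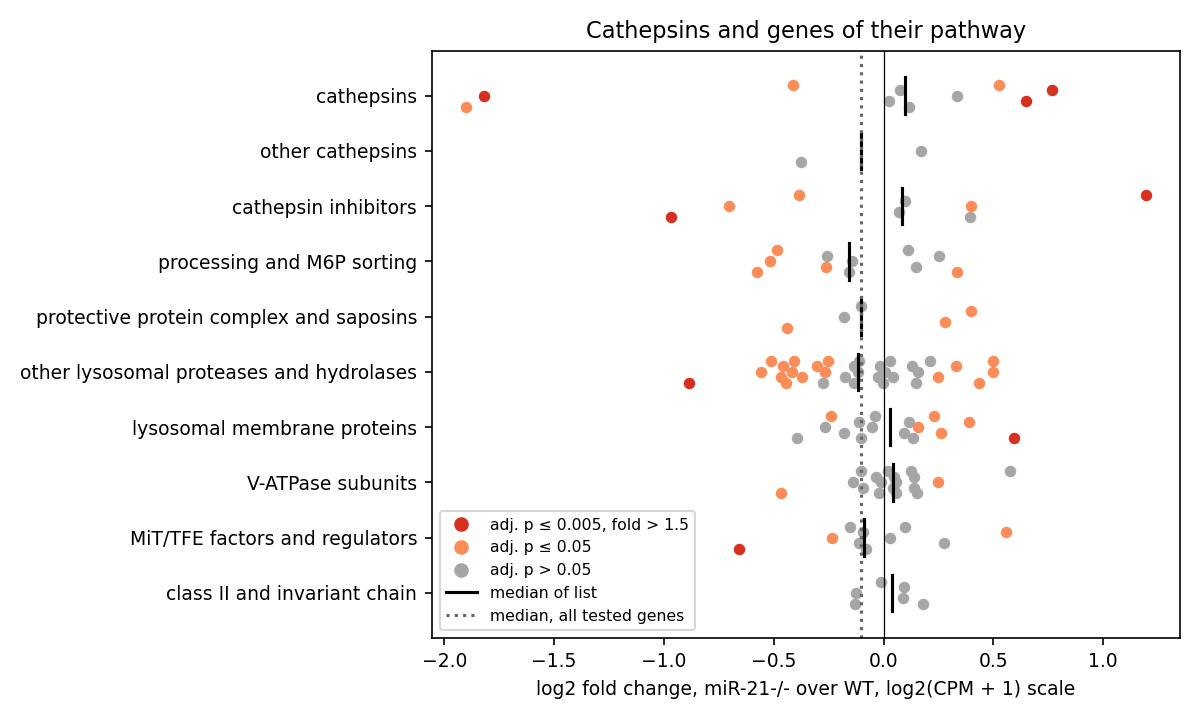
Log2 fold change, miR-21-/- over WT, on the log2(CPM + 1) scale, of every tested gene (points) of the 10 cathepsins and of the lists around them. Colors give the limma call, black lines are list medians and the dotted line is the median of all tested genes, -0.10. The cathepsins spread further to both sides than the V-ATPase subunits or the class II and invariant chain genes. Only Ctsf and Ctsk lay below the lowest V-ATPase subunit, and the inhibitors ran from -0.97 to 1.19.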

How the data were processed

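TAM mRNA libraries (Kapa mRNA Hyper prep) of 4 WT and 4 miR-21-/- samples were analysed. The deposited CPM values were made by the authors with STAR and Partek 7.0 on build mm10, according to the submitters' processing notes. Annotation, counting rule and strand are not given in the sources used here. A floor of 0.0001 had been added to each value. Of the low values (up to 20 reads), 72.7 to 73.7% were whole reads within 0.02 reads, so no count test was run. Genes whose mean reached 1 CPM after rescaling to the column totals were tested on log2(CPM + 1) with limma 3.58.1 (R 4.3.3; eBayes with trend, two-sided, Benjamini-Hochberg adjusted). Positions and transcript lengths came from GENCODE vM21 (GRCm38), whose starts equalled the table's for 9 of 10 members. Figures used matplotlib 3.10.9. The members and gene lists were chosen with earlier results of these data known. Named genes were all members, for each list the genes past both limits and the extremes of log2 fold change at both ends, and the 5 profiles nearest to Ctsk. Alternatives were pseudocounts, filters, scalings, limits, sample weights, a replicate block and leaving out each sample. The limma script was tested on simulated data. P-values measure the spread between these samples.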

Additional observations from a re-analysis of the deposited data

Results flagged for a closer look

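A sample standing far from the other 3 of its group was sought by the gap to the nearest sample over the group's range. It was found in 4 of the 56 groups of values of the 28 genes named by the rules above, apart from likeness to Ctsk. Genes chosen after their values were seen, such as Igf2r and Col3a1, were not counted. Chance alone marks about 1 in 20 groups. Ctsc was 2792 CPM in WT replicate 1, against 2243 to 2321 CPM in the other WT samples, so the highest WT sample lay closest to the miR-21-/- group. Ctsk was 15.3 CPM in miR-21-/- replicate 2, against 3.84 to 4.68 CPM in the rest of its group. The same library stood out for Slc9b2 at 0.480 CPM and Ang at 2.82 CPM, which were chosen for their likeness to Ctsk over these samples and so add nothing to it. M6pr was 353 CPM in WT replicate 3, against 329 to 333 CPM. Flcn was 58.2 CPM in miR-21-/- replicate 3, against 45.3 to 46.6 CPM.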

How the results depend on the processing

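The count of cathepsins lower past both limits, 1 as reported, was 0 with a pseudocount of 10, without a filter on low values and with a filter of 5 CPM, which removed Ctsf. It was 2 with an adjusted p limit of 0.05 and the fold limit kept, and 2 with the 0.005 limit and no fold limit. The count higher past both limits, 2 as reported, was 1 with quantile normalization (Ctsc). The count higher at an adjusted p of 0.05 or less, 3 as reported, was 5 with the median of ratios, by gain of Ctsb and Ctsh. These scalings moved the median log2 fold change of all tested genes from -0.10 to 0.0015 and -0.0076. The calls over all tested genes past both limits moved from 400 higher and 586 lower to 528 and 348 with the median of ratios, and to 491 and 337 with quantile normalization. At an adjusted p of 0.05 or less they moved from 1314 and 3668 to 2195 and 2001, and to 1901 and 2255.

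Small differences changed sign. With quantile normalization Ctsh was -0.0082 and Ctsz -0.040. Leaving out each sample gave -0.060 to 0.21 for Ctsd and -0.0028 to 0.044 for Ctsz, both negative without WT replicate 4, and -0.27 to 0.059 for H2-Aa, positive without miR-21-/- replicate 2. Ctsc and Ctsa kept their direction and call in all 17 alternatives run. Leaving out each sample in turn gave 2 to 3 cathepsins higher and 1 lower past both limits. At an adjusted p of 0.05 or less it gave 3 higher and 2 to 3 lower.

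Samples with the same biological replicate number in the labels did not deviate together (r from -0.14 to 0.22). The numbers in the sample titles differ from these for the miR-21-/- samples, and the matches they give had r from -0.0018 to 0.14, so neither set paired the samples every time and the numbers were not taken to pair them. With the labelled replicate number as a block, 2 cathepsins were higher and 1 lower past both limits, and 4 were higher (Ctsb added, adjusted p = 0.0431, limma) and 3 lower at an adjusted p of 0.05 or less. Few reads limit Ctsf, with 7 to 15 in each miR-21-/- sample. The isoform length, an alternative chosen after seeing the data, limits comparisons of level between genes.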
